A study of Mus musculus with 8 samples.

Results

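The proteins that form the core of the spliceosome were examined here at the level of their transcripts, in mouse ovarian follicles. The genes were taken by name from the deposited gene table: those starting with Snrp followed by a letter from a to g, with Lsm followed by a digit, or with Sf3a or Sf3b followed by a digit. The rule took 34 of the 55157 genes in the table, 12 small nuclear ribonucleoprotein (snRNP) genes, 13 LSm genes and 9 SF3 genes. All 34 had a mean of at least 1 FPKM (fragments scaled to exon length and library depth) over the libraries, as did 14738 genes of the table. Of the 34, 33 are annotated as protein coding, and Snrpert is annotated as a processed pseudogene of a single exon.

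The follicles were type 7 to 8 (a stage defined by morphology) from Kunming mice, an outbred stock, at postnatal day 21. The 4 control libraries came from mice given PMSG (pregnant mare serum gonadotropin, used to drive follicle growth in place of the pituitary hormone FSH) and normal saline, and the 4 melatonin libraries from mice given PMSG and melatonin. RNA was taken 24 hours after injection in both groups, so both had received the gonadotropin and no group was without it. Whether each replicate is an animal, a pool or a repeat preparation is not in the labels. The p-values therefore speak only to variation among these 8 libraries, part of which may be technical.

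The spliceosome removes introns from pre-messenger RNA. Its building blocks are snRNPs, in each of which a small nuclear RNA is held by a ring of related proteins: the Sm proteins in U1, U2, U4 and U5, and the LSm2 to LSm8 proteins in U6. SF3a and SF3b are protein complexes of the U2 snRNP that grip the branch point of the intron. A ring in which LSm1 replaces LSm8 works in the cytoplasm in messenger RNA decay, and LSm10 and LSm11 take the place of SmD1 and SmD2 in the U7 snRNP, which processes histone messenger RNA. In growing oocytes, splicing and RNA storage support the stock of maternal messenger RNA.

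The sequences just around the start sites were looked at first, because the members code for parts of the same complexes. RefSeq start-site windows (GRCm38.p6, 300 bases, from 250 before to 50 after the start) matched 26 of the 34 genes. Of 8 short motifs searched on both strands, the ETS core CCGGAAG, which ETS transcription factors recognise, was in 11 of the 26 windows and in 8.9% of 32817 windows of all genes. The GC box GGGCGG was in 18 of 26 and in 35.6% of all windows. The CCAAT box CCAAT was in 10 of 26 (37.4% of all windows), the TATA box TATAAA in 2 (13.6%), the consensus YY1 site in 2 (0.8%), the cAMP response element TGACGTCA in 2 (1.8%), the E-box CACGTG in 1 (7.1%) and the consensus NRF1 site in 0 (1.0%). The windows of all genes include those of non-coding genes and every distinct start site listed, while a member has only the window nearest to its annotated start. The shares are therefore not on the same basis, and a match describes the letters and not a bound site. The ETS core was in the windows of 6 of 7 SF3 genes, 4 of 9 snRNP genes and 1 of 10 LSm genes. The lines give 25 bases around the ETS core of each of the 11, the match nearest to the start site where there are several, in the orientation of the gene with the core or its reverse complement CTTCCGG in capitals. Distances are to the RefSeq start, and the cores of Sf3a2, Snrpb2, Snrpc and Snrpg lie inside the gene as annotated in GENCODE M21.
Sf3a1, chr11:4160338-4160362, + strand, core 7 bases upstream: agggcgggaCCGGAAGtgctcccgc
Sf3a2, chr10:80798650-80798674, + strand, core 76 bases upstream: cctttgctcCCGGAAGggatcgctt
Sf3a3, chr4:124714762-124714786, + strand, core 90 bases upstream: cccaagacaCTTCCGGgacacgcgg
Sf3b2, chr19:5295453-5295477, - strand, core 13 bases upstream: attacgcaaCCGGAAGtttctggaa
Sf3b3, chr8:110847017-110847041, - strand, core 229 bases upstream: cggtgggcgCTTCCGGgcttgcgag
Sf3b6, chr12:4817529-4817553, + strand, core 70 bases upstream: gtccgcaatCCGGAAGcgttctgga
Snrpb2, chr2:143063051-143063075, + strand, core 9 bases upstream: ggggaagctCTTCCGGtattagttt
Snrpc, chr17:27840039-27840063, + strand, core 39 bases upstream: gggcagaggCCGGAAGcggaagtcc
Snrpe, chr1:133610262-133610286, - strand, core 3 bases downstream: cgggtcttgCTTCCGGaagtcgctt
Snrpg, chr6:86371386-86371410, + strand, core 145 bases upstream: gcgacgcaaCCGGAAGcgtggctct
Lsm5, chr6:56704667-56704691, - strand, core 17 bases downstream: ccttagccaCTTCCGGcgtggccat

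Sf3b1 and Lsm11, the 2 members with a positive difference between the groups (given further on), had no ETS core in their windows. They are 2 of 15 genes without it, and the other 13 had a negative log2 fold change, as did the 11 genes with it (median -0.11 over the 15 without the core and -0.15 over the 11 with it). For Sf3b1 and Lsm11, the 120 bases upstream of the first annotated exon are given. These stretches hold no annotated exon, while some of the lines above do. Matches to the GC box or its reverse complement CCGCCC are in capitals. Each of the stretches holds 2 such matches.
Sf3b1, chr1:55027482-55027601, - strand: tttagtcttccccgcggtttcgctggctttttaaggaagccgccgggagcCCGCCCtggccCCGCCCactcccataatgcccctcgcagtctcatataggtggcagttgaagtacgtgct
Lsm11, chr11:45944936-45945055, - strand: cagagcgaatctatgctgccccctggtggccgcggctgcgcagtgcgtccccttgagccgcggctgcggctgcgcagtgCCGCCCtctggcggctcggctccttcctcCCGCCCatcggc

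The members, not all of which belong to the spliceosome, were expressed at widely spread levels. In control follicles the 34 transcripts ran from 2.63 ± 0.33 FPKM for Lsm11 to 102.8 ± 2.03 FPKM for Snrpb (SD, n = 4 each), and the plot of levels by gene shows the spread within each family. The Sm ring was led by Snrpb, which codes for SmB, followed by Snrpd1 (SmD1) at 69.9 ± 4.29 FPKM. Snrpe (51.7), Snrpd2 (51.5), Snrpg (50.3) and Snrpf (47.9 FPKM) came next, with control ranges that overlapped from each to the next, and Snrpd3 (SmD3) was lowest at 36.9 ± 2.19 FPKM, below Snrpf in each control library. Of the proteins specific to U1 or U2, the U1 protein gene Snrpa had 30.4 ± 1.87 FPKM and the U1 gene Snrpc 9.37 ± 0.18, while the U2 genes Snrpb2 and Snrpa1 had 26.3 ± 1.59 and 11.97 ± 0.75. The control ranges of these 4 did not overlap from each to the next.

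**Figure D1:**
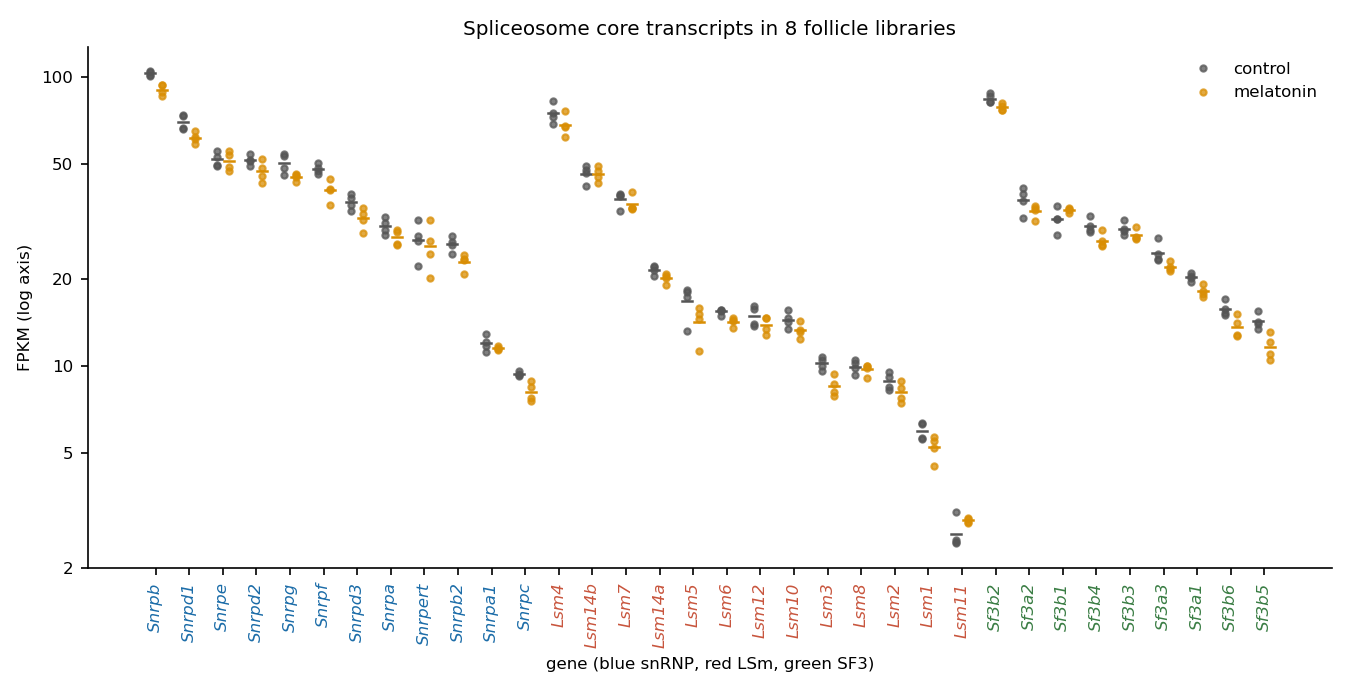
FPKM (log axis) of the 34 members in 4 control (grey) and 4 melatonin (orange) libraries, grouped by family and ordered by control mean; points are libraries and short lines are group means. Snrpb is the highest at 102.8 FPKM and Lsm11 the lowest at 2.63 FPKM in control, and group means of a gene lie close together beside the spread between genes.

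The LSm ring was less even. Lsm4 had 74.6 ± 5.65 FPKM and Lsm7 37.8 ± 2.39, ahead of Lsm5 (16.7) and Lsm6 (15.4), whose ranges overlapped. Lsm3 (10.2), Lsm8 (9.94) and Lsm2 (8.84) followed, with ranges that overlapped from each to the next, and Lsm1, the cytoplasmic subunit, was at 5.94 ± 0.40 FPKM. Of the U7 proteins Lsm10 was at 14.5 ± 0.94 FPKM and Lsm11 at 2.63. Lsm14b, which codes for an RNA-binding protein of stored messenger RNA in oocytes, was at 46.2 ± 3.03 FPKM, against 21.5 ± 0.72 for its paralog Lsm14a. By principal transcript length this pair would be closer, at 52.8 FPKM for Lsm14b and 44.8 for Lsm14a. In SF3, the SF3b subunit gene Sf3b2 led at 84.0 ± 3.05 FPKM, Sf3a2, Sf3b1, Sf3b4 and Sf3b3 lay between 37.5 and 29.8 FPKM with ranges that overlapped from each to the next, and the small subunit genes Sf3b6 and Sf3b5 were lowest at 15.8 and 14.2 FPKM.

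These levels depend on the length by which fragments were divided. The authors' FPKM fit whole fragments when divided by the union of the annotated exons (GENCODE M21, mm10) in 32 of the 34 genes, and this union can be far longer than the main transcript: 1601 bases against 468 for Lsm7, and 6521 against 984 for Snrpc. In a comparison chosen after seeing the data, the fragments were divided by the principal transcript instead. If the fragments of a gene all came from its principal transcript, Lsm7 would stand at 129.4 and Lsm4 at 83.7 FPKM in control, and Snrpc at 62.1 in place of 9.37. Within the Sm ring Snrpb (174.9) would still lead, with Snrpe next at 141.0 among the 6 genes so recomputed. Among the SF3 genes so recomputed Sf3b3 (71.8) and Sf3b1 (58.9) would lead. Sf3b6 would stand at 38.1, above Sf3a3 (37.7), Sf3b4 (34.4) and Sf3a1 (25.3), and Sf3b5 would stay lowest at 14.2. Sf3b2 and Snrpd1 could not be recomputed, as their values gave no whole fragments with this annotation. The ratio of a gene's FPKM between groups does not depend on this length, while its log2 fold change on log2(FPKM + 1) does to a small degree: with a pseudocount of 0.1 in place of 1, Snrpc moved from -0.19 to -0.20 and Lsm11 from 0.11 to 0.15.

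Each LSm protein has a counterpart in the Sm ring. In control follicles the ratio of FPKM was 10.37 ± 0.71 for Snrpb over Lsm8, 7.93 ± 0.71 for Snrpd1 over Lsm2, 5.06 ± 0.45 for Snrpd2 over Lsm3, 3.13 ± 0.42 for Snrpe over Lsm5, 3.11 ± 0.18 for Snrpf over Lsm6 and 1.33 ± 0.05 for Snrpg over Lsm7 (SD, n = 4). Snrpd3 over Lsm4 was the exception, at 0.50 ± 0.06. With melatonin the ratios were 9.28 ± 0.26, 7.61 ± 0.41, 5.55 ± 0.54, 3.64 ± 0.47, 2.84 ± 0.17, 1.25 ± 0.07 and 0.48 ± 0.04 in the same order. The size and order of these ratios rest on the exon lengths. By principal transcript length the control ratios would be 3.39 ± 0.23 for Snrpb over Lsm8, 2.52 ± 0.22 for Snrpd2 over Lsm3, 5.33 ± 0.72 for Snrpe over Lsm5, 2.89 ± 0.17 for Snrpf over Lsm6 and 0.50 ± 0.06 for Snrpd3 over Lsm4. Snrpg over Lsm7 would be 0.58 ± 0.02, which turns the order of that pair, and the pair with Snrpd1 could not be recomputed.

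The design compares PMSG with melatonin against PMSG with saline. Of the 34 transcripts, 32 had a negative log2 fold change (melatonin minus control, on log2(FPKM + 1)), against 52.5% of the 14738 tested genes. The median was -0.13 over the members and -0.010 over all tested genes. No member passed the threshold of an adjusted p of 0.05: with limma 0 of 34 and 0% of all tested genes did, and limma-voom on recovered fragments called 0 of the 32 members it could use. The smallest adjusted p among the members was 0.138 (limma), for Snrpb. At an unadjusted p under 0.05 (limma), 14 members were lower and 0 were higher, where the background over all tested genes was 9.74% lower and 9.40% higher. The groups did not overlap in 11 members, with melatonin below control in each, against 5.94% of all tested genes below and 5.79% above. With the filter raised to 5 FPKM, which keeps 33 of the members, the background at that level was 13.7% on the lower side and 8.91% on the higher side, and 8.50% with melatonin entirely below control. After quantile normalization 9 members were lower at an unadjusted p under 0.05 and 4 had groups that did not overlap, and without melatonin replicate 1 there were 9 lower. The shares over all tested genes under these alternatives are not given here, so these counts have no background of their own. These samples are bulk RNA, in which fewer cells of a type and less RNA per cell cannot be told apart.

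**Figure D2:**
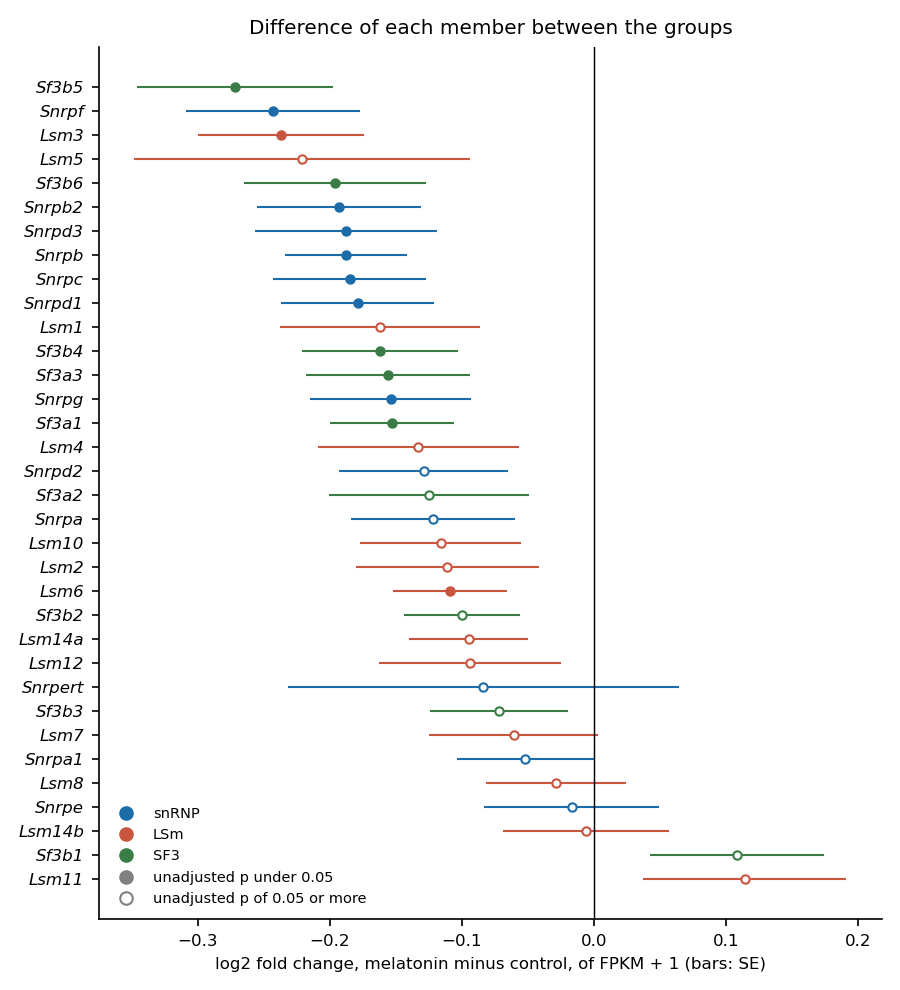
Log2 fold change of each of the 34 members (melatonin minus control, on log2(FPKM + 1)) with its SE from limma; filled points have an unadjusted p under 0.05. The values run from -0.27 for Sf3b5 to 0.11 for Lsm11, and 32 of 34 lie below 0.

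The Sm ring genes, which code for the ring around U1, U2, U4 and U5 RNA, were on the negative side in 7 of 7 (median -0.18), with 5 at an unadjusted p under 0.05 and 3 whose groups did not overlap. Over all tested genes, 9.74% were lower at that level and 5.94% had melatonin entirely below control (13.7% and 8.50% with the filter at 5 FPKM). Snrpb (ENSMUSG00000027404, chromosome 2, 130171414 to 130179403, mm10) had 100.6, 101.5, 104.9 and 104.0 FPKM in control replicates 1 to 4 and 85.5, 93.3, 93.3 and 88.5 in melatonin replicates 1 to 4. The lowest control library was above the highest melatonin library, and the log2 fold change was -0.19 ± 0.046 (SE; limma adjusted p = 0.138). Snrpd1 (chromosome 18, 10617775 to 10642079) had 73.3, 66.6, 73.9 and 65.8 FPKM in control and 62.0, 61.0, 65.0 and 58.3 in melatonin. These groups were apart by less than 1 FPKM, with control replicate 4 and melatonin replicate 3 nearest to each other (log2 fold change -0.18 ± 0.058, limma adjusted p = 0.170). Snrpf, the SmF gene (chromosome 10, 93583029 to 93589706), had 47.1, 50.2, 48.3 and 46.0 FPKM in control and 40.8, 40.7, 44.3 and 35.8 in melatonin, the lowest in melatonin replicate 4. Its log2 fold change of -0.24 ± 0.066 was the most negative of the snRNP genes (limma adjusted p = 0.147). Snrpe, the SmE gene, had the smallest difference of the ring, with 52.7, 49.2, 49.4 and 55.4 FPKM in control and 47.2, 53.5, 55.2 and 48.5 in melatonin. Its groups overlapped over most of their range, and its log2 fold change was -0.017 ± 0.066. The contrast of Snrpe with the other ring genes was not tested. The pseudogene Snrpert, which can share reads with Snrpe, had 27.3 ± 4.09 FPKM in control and 25.9 ± 4.97 in melatonin on 104 to 192 fragments per library, so both values are uncertain.

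Snrpd2, Snrpd3 and Snrpg completed the ring, at 51.5 ± 2.11 against 47.1 ± 3.87, 36.9 ± 2.19 against 32.3 ± 2.59 and 50.3 ± 3.98 against 45.01 ± 1.24 FPKM in control and melatonin (SD, n = 4 each). Their log2 fold changes were -0.13, -0.19 and -0.15, and their groups overlapped. Among the U1 and U2 proteins, 2 genes had groups that did not overlap, where 5.94% of all tested genes had melatonin entirely below control. Snrpc, the U1-C gene whose product helps U1 meet the 5′ splice site, had 9.37 ± 0.18 against 8.14 ± 0.62 FPKM (log2 fold change -0.19 ± 0.058, limma adjusted p = 0.165). Snrpb2, a U2 protein gene, had 26.3 ± 1.59 against 22.9 ± 1.45 (-0.19 ± 0.062, limma adjusted p = 0.171). Their partners showed smaller differences: Snrpa had 30.4 ± 1.87 against 27.8 ± 1.75 FPKM and Snrpa1, which binds U2 together with Snrpb2, had 11.97 ± 0.75 against 11.5 ± 0.16.

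The LSm genes were negative in 12 of 13 (median -0.11). Of the 13, 2 were lower at an unadjusted p under 0.05, a share near the background of 9.74% over all tested genes (13.7% with the filter at 5 FPKM). Lsm3, a subunit of both LSm rings (chromosome 6, 91515928 to 91522625), had 9.62, 10.5, 10.7 and 9.99 FPKM in control and 7.86, 8.64, 9.40 and 8.14 in melatonin. The groups did not overlap, although melatonin replicate 3 came close to control replicate 1 (log2 fold change -0.24 ± 0.063, limma adjusted p = 0.146). Lsm6, also in both rings, had 15.4 ± 0.33 against 14.2 ± 0.47 FPKM, again without overlap (-0.11 ± 0.043, limma adjusted p = 0.226). Lsm4, the most abundant LSm transcript by FPKM, had 68.8, 72.7, 74.7 and 82.2 FPKM in control and 67.5, 66.7, 76.0 and 61.8 in melatonin. Melatonin replicate 3 was above 3 of the 4 control libraries, and the log2 fold change was -0.13 ± 0.076. Lsm7 had 39.4, 34.3, 38.6 and 39.1 FPKM in control and 35.2, 35.1, 34.8 and 39.8 in melatonin, so control replicate 2 was the lowest and melatonin replicate 4 the highest of the 8 libraries (-0.061 ± 0.064).

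Lsm1 and Lsm8 are the subunits that set the decay ring apart from the U6 ring. Lsm1 had 5.94 ± 0.40 against 5.22 ± 0.52 FPKM (log2 fold change -0.16 ± 0.076) and Lsm8 had 9.94 ± 0.51 against 9.72 ± 0.42 (-0.029 ± 0.053), and both overlapped between the groups. Lsm5 had 16.7 ± 2.36 against 14.2 ± 2.03 FPKM, with the largest SE of the ring on the log2 scale (-0.22 ± 0.13), and Lsm2 had 8.84 ± 0.61 against 8.11 ± 0.64 (-0.11 ± 0.069). The U7 pair went in different directions. Lsm10 had 13.4, 14.6, 14.2 and 15.6 FPKM in control and 13.3, 14.2, 13.1 and 12.4 in melatonin (-0.12 ± 0.061). Lsm11, the U7 subunit that recruits the histone cleavage machinery, had 2.44, 2.46, 2.50 and 3.12 FPKM in control and 2.89, 2.86, 2.97 and 2.95 in melatonin (0.11 ± 0.077, limma adjusted p = 0.445). The melatonin values of Lsm11 lay above 3 control libraries and below control replicate 4, on 277 to 443 fragments per library. Without control replicate 4 the log2 fold change of Lsm11 was 0.18. The difference between Lsm10 and Lsm11 was not tested.

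The LSm14 proteins bind stored and repressed messenger RNA and are no part of a spliceosome ring. Lsm14b had 42.0, 47.6, 46.3 and 49.0 FPKM in control and 45.03, 42.8, 47.2 and 49.1 in melatonin, and the groups covered nearly the same range (log2 fold change -0.006 ± 0.063). The sign of this value turned under quantile normalization (0.071), median-ratio scaling (0.001) and removal of GC and length trends (0.043). Lsm14a had 20.5, 22.0, 21.5 and 22.1 FPKM in control and 20.5, 20.04, 20.7 and 19.1 in melatonin, with overlap at a single control library (-0.095 ± 0.045, limma adjusted p = 0.296). Lsm12, which is also in neither ring, had 14.9 ± 1.17 against 13.9 ± 0.94 FPKM (-0.094). The 8 oocyte markers checked, among them Gdf9, Bmp15 and Zp3, were negative in 7 of 8 with 0 at an unadjusted p under 0.05. Ddx4 went the other way, with a mean of 2.73 FPKM in control and 4.31 with melatonin. The sum of the 8 markers lay between 291.2 and 460.7 FPKM in control and between 278.0 and 366.8 FPKM with melatonin.

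**Figure D3:**
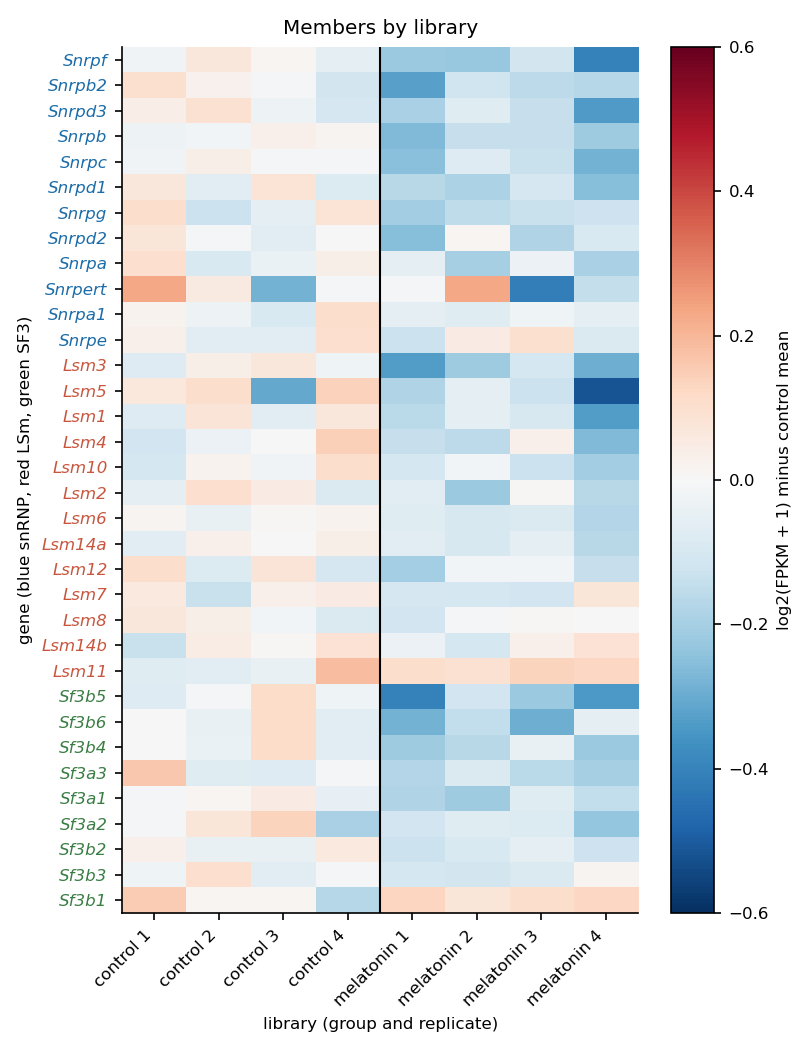
Deviation of log2(FPKM + 1) from the control mean of each gene (colour, blue below and red above) in the 8 libraries (columns), with members in rows by family. Of the 34 members, 32, 29, 27 and 28 are below the control mean in melatonin replicates 1 to 4. Of the 14738 tested genes, 7608, 7474, 7443 and 7720 are below it in the same libraries. In the control libraries, which set that mean, 17 to 19 members are below it.

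The SF3 genes were negative in 8 of 9 (median -0.15), with 5 lower at an unadjusted p under 0.05 and 4 whose groups did not overlap. The shares over all tested genes were 9.74% lower and 5.94% with melatonin entirely below control (13.7% and 8.50% with the filter at 5 FPKM). Sf3b5 (chromosome 10, 13005343 to 13009183), a small SF3b subunit gene annotated as a single exon, had 13.4, 14.2, 15.4 and 13.96 FPKM in control and 10.5, 13.1, 12.1 and 10.98 in melatonin. The groups did not overlap, and its log2 fold change of -0.27 ± 0.074 was the most negative of the 34 members (limma adjusted p = 0.147). Sf3a1, the large SF3a subunit gene (chromosome 11, 4160350 to 4182541), had 20.1, 20.4, 21.0 and 19.5 FPKM in control and 17.8, 17.3, 19.2 and 18.2 in melatonin. Its highest melatonin library, replicate 3, lay just under its lowest control library (-0.15 ± 0.047, limma adjusted p = 0.162). Sf3b2, which binds near the branch point (chromosome 19, 5273932 to 5295455), had 85.7, 81.4, 81.5 and 87.4 FPKM in control and 76.7, 78.9, 80.8 and 76.9 in melatonin. These did not overlap either, with a smaller log2 fold change of -0.100 ± 0.044 (limma adjusted p = 0.262). Sf3a2 had 37.1, 39.3, 41.2 and 32.6 FPKM in control and 34.5, 35.6, 35.3 and 31.7 in melatonin, with control replicate 4 within the melatonin range (-0.13 ± 0.076).

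Sf3b1, the largest SF3b subunit and the one that encloses the branch point, differed in sign from the rest of SF3. It had 35.6, 32.2, 32.2 and 28.3 FPKM in control and 35.1, 33.7, 34.5 and 34.95 in melatonin (chromosome 1, 54985169 to 55027481). The melatonin libraries lay close together, above 3 of the control libraries and below control replicate 1, and the log2 fold change was 0.11 ± 0.066 (limma adjusted p = 0.404). Its value rested on the scaling: it was 0.17 after quantile normalization and 0.006 once GC and length trends were removed, and it was 0.16 without control replicate 1 and 0.051 without control replicate 4. Sf3b1 has the longest exon union of the members, at 11370 bases. Sf3b3, at 10919 bases, had 29.8 ± 1.55 against 28.3 ± 1.23 FPKM (-0.072). Of the remaining subunits, Sf3a3 had 24.6 ± 2.05 against 21.98 ± 0.79 FPKM without overlap (-0.16), while Sf3b4 (30.4 ± 1.73 against 27.1 ± 1.63) and Sf3b6 (15.8 ± 0.93 against 13.6 ± 1.18) overlapped (-0.16 and -0.20).

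Families were compared over libraries by the median deviation of their members from the control mean on the log2 scale. For snRNP genes this median lay between -0.036 and 0.055 in control and between -0.20 and -0.098 with melatonin, and for SF3 genes -0.051 to 0.051 and -0.17 to -0.082. For LSm genes it was -0.066 to 0.048 and -0.17 to -0.052, so that control replicate 1 was below melatonin replicate 3. Over all tested genes the medians stayed between -0.012 and 0.011 in the 8 libraries. The lowest values over the 34 members were -0.17 in melatonin replicate 4 and -0.15 in melatonin replicate 1, and replicates 2 and 3 had -0.097 and -0.092. Summed over the members, FPKM lay between 1073 and 1099 in control and between 966 and 1022 with melatonin, which is 3.63 to 3.77 per mille of a library's FPKM in control and 3.42 to 3.66 in melatonin. On that relative scale melatonin replicate 3 (3.66) was above control replicate 1 (3.63). The total FPKM of a library was itself lower with melatonin, at 278096 to 284603 against 287731 to 302290 in control.

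Properties of the libraries moved with the groups. Each library's deviations from the gene means were correlated with exon length across genes (Spearman): rho lay between -0.107 and -0.048 in the control group and between 0.024 and 0.115 in the melatonin group. Against GC content, rho lay between -0.024 and 0.26 for control and between -0.18 and -0.12 for melatonin. The members had a median exon length of 2856 bases and a median GC content of 47.2%, against 3676 bases and 49.4% over all tested genes. Across the 34 members the log2 fold change had a Spearman rho of 0.28 with exon length, 0.12 with GC content and -0.01 with control FPKM, given as a description. With both trends removed from each library, the medians were -0.14 for snRNP, -0.080 for LSm and -0.092 for SF3 genes, 14 members were lower at an unadjusted p under 0.05 and 10 did not overlap, against 9.06% and 5.75% of the genes in that fit. Granulosa markers such as Inha, Fshr and Foxl2 also moved with the groups: 7 of 8 were negative. Of the 8, 3 were lower at an unadjusted p under 0.05, against 9.74% of all tested genes. Their sum lay between 7273 and 9333 FPKM in control and between 6160 and 6940 FPKM with melatonin, without overlap. Inha makes up most of this sum, with a mean of 6597 FPKM in control and 5445 with melatonin. Nr5a2 went the other way, with a mean of 170.5 FPKM in control and 180.6 with melatonin. The markers of theca and steroid cells summed to 942.7 to 1289 and 584.5 to 1150 FPKM, those of stroma to 33.0 to 69.3 and 21.5 to 41.7, those of endothelium to 6.12 to 9.38 and 4.86 to 7.30, and those of leukocytes to 18.9 to 104.7 and 16.6 to 29.3, all of whose ranges overlapped. Hsd3b1 makes up most of the theca sum, with a mean of 1038 FPKM in control and 833.6 with melatonin. The tested markers of theca, stroma, endothelium and leukocytes were nonetheless on the negative side: 5 of 5 for theca and steroid cells (2 lower at an unadjusted p under 0.05), 5 of 5 for stroma (0 lower), 3 of 3 for endothelium (1 lower) and 3 of 3 for leukocytes (0 lower). The endothelial marker Tek and the leukocyte marker Ptprc averaged under 1 FPKM and were not tested. Tek went the other way, with a mean of 0.62 FPKM in control and 0.65 with melatonin. Ptprc had 0.26 in control and 0.13 with melatonin. These small counts are to be read against the 9.74% of all tested genes that were lower. No marker was at 0 in every library. The part of these cell types in the result was not tested.

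Other genes of the splicing pathway were taken from 9 partner lists. None of their 90 tested genes passed the threshold (limma, against 0% of all tested genes). At an unadjusted p under 0.05, 22 of the 90 were lower and 4 higher, where 9.74% of all tested genes were lower and 9.40% higher; counts in the single lists are small and are to be read against those shares. The 17 genes of U5 and the tri-snRNP were negative in 16 (median -0.11, 7 lower at an unadjusted p under 0.05). Prpf8, the protein at the heart of the spliceosome, had 68.3 ± 2.43 against 62.8 ± 2.69 FPKM, Snrnp40 had 12.9 ± 0.86 against 10.6 ± 0.60 and the GTPase gene Eftud2 had 15.5 ± 0.84 against 13.8 ± 0.76 (SD, n = 4 each). The Prp19 complex, which stabilises the active spliceosome, was negative in 12 of 12 (median -0.10, 3 lower), with Bud31 at 25.2 ± 1.61 against 20.8 ± 0.57 FPKM and Cwc15 at 37.9 ± 2.09 against 33.6 ± 1.67. Genes of the U2 auxiliary and SF3-bound list were negative in 10 of 13 (median -0.061, 5 lower). Phf5a, an SF3b subunit that the naming rule does not take, had 20.4, 20.8, 21.2 and 19.9 FPKM in control and 15.6, 18.1, 16.9 and 16.5 in melatonin, without overlap (log2 fold change -0.28 ± 0.052, limma adjusted p = 0.120). U2af1, which reads the 3′ splice site, had 102.3 ± 1.92 against 91.6 ± 2.61 FPKM.

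The U1 partner list lay on the other side, with 6 of 6 genes positive (median 0.19) and 3 higher at an unadjusted p under 0.05. Luc7l3, a U1-associated protein gene, had 53.7, 48.4, 40.7 and 37.3 FPKM in control and 61.4, 59.6, 54.0 and 60.9 in melatonin (log2 fold change 0.40 ± 0.11, limma adjusted p = 0.148). Prpf39 had 11.8 ± 2.13 against 15.2 ± 0.79 FPKM (0.35 ± 0.11), Luc7l2 had 34.0 ± 5.97 against 40.6 ± 1.27, and Snrnp70, the U1-70K gene, had 93.8 ± 5.68 against 99.7 ± 3.78 (0.088 ± 0.056). After quantile normalization 6 of 6 were still positive (median 0.24), and with GC and length trends removed 5 of 6 were (median 0.14, 2 higher at an unadjusted p under 0.05). The share of all genes that were higher in that last fit is not given here, so this count has no background of its own. Without control replicate 2, control replicate 4 or melatonin replicate 3, 5 of 6 were positive. In the fit reported here the U1 members Snrpa and Snrpc were negative, while the 6 genes of this list were positive. This difference was not tested. It also depends on how the list was drawn: Snrnp70 is itself a U1 protein gene, and is in the list because the naming rule does not take it.

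**Figure D4:**
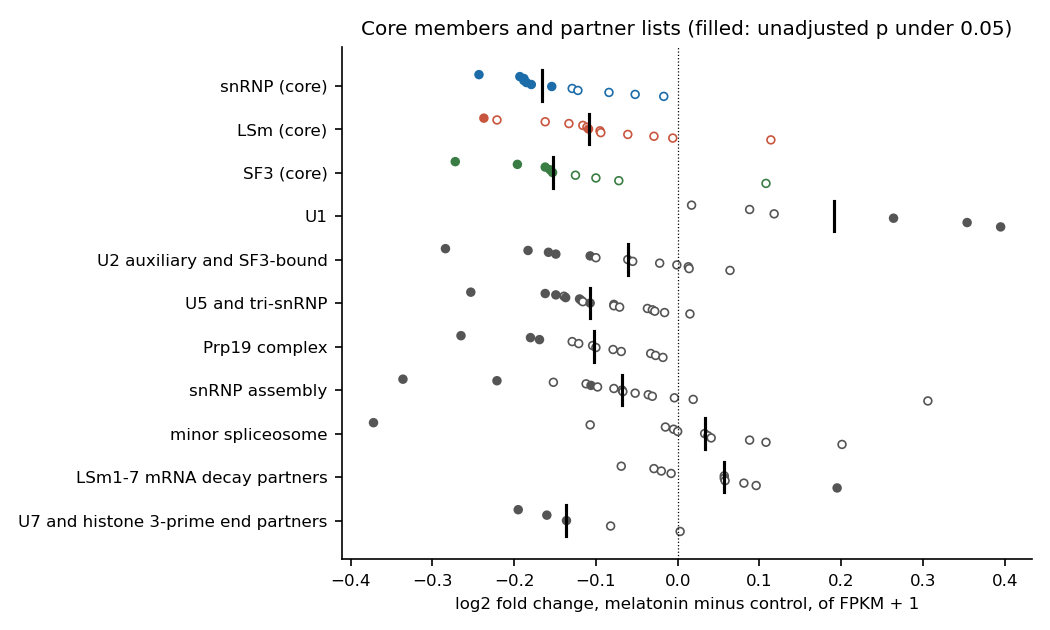
Log2 fold changes (melatonin minus control, on log2(FPKM + 1)) of the core families and of 8 partner lists; each point is a gene, filled where the unadjusted p is under 0.05, and the bar is the list median. The U1 list is the one with 6 of 6 genes above 0 (median 0.19), and the Prp19 list has 12 of 12 below 0.

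The factors that build snRNPs were negative in 13 of 15 (median -0.068, 3 lower at an unadjusted p under 0.05). Prmt5, the methyltransferase that modifies Sm proteins before assembly, had 21.4, 19.2, 19.99 and 18.7 FPKM in control and 17.2, 17.1, 17.2 and 16.0 in melatonin, without overlap (log2 fold change -0.22 ± 0.053, limma adjusted p = 0.132). Gemin6, of the SMN complex that loads the ring, had 6.63 ± 1.17 against 5.01 ± 0.57 FPKM, and Smn1, its central gene, had 10.96 ± 0.65 against 10.4 ± 0.48 (-0.068 ± 0.057). The minor spliceosome, which removes a rare class of introns, was negative in 4 of 11 (median 0.033), with Snrnp25 at 17.5 ± 1.32 against 13.3 ± 0.96 FPKM (-0.37 ± 0.070, limma adjusted p = 0.120) and Rnpc3 at 6.76 ± 0.98 against 7.87 ± 0.48. Decay partners of the cytoplasmic LSm ring were negative in 4 of 10 (median 0.057, 1 higher), with the decapping factor gene Dcp1b at 4.37 ± 0.46 against 5.14 ± 0.49 FPKM and Patl1 at 15.5 ± 0.88 against 16.5 ± 0.20. Partners in histone messenger RNA processing were negative in 4 of 5 (median -0.14, 3 lower). Slbp, the histone stem-loop binding protein gene, had 14.3 ± 0.20 against 12.4 ± 0.57 FPKM (-0.20 ± 0.046, limma adjusted p = 0.123) and Cpsf2 had 12.8 ± 0.50 against 11.4 ± 0.72. Snrpn, the brain-type paralog of Snrpb, was low, at 3.99 ± 0.86 against 3.86 ± 0.28 FPKM.

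The family medians kept their sign under each of the 17 alternatives run, as the plot of medians by setting shows. The size was less steady. The snRNP median was -0.17 in the fit reported here and -0.078 after quantile normalization, and the SF3 median was -0.15 and -0.092 once GC and length trends were removed. The LSm median ran from -0.12 to -0.079 over the alternatives.

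**Figure D5:**
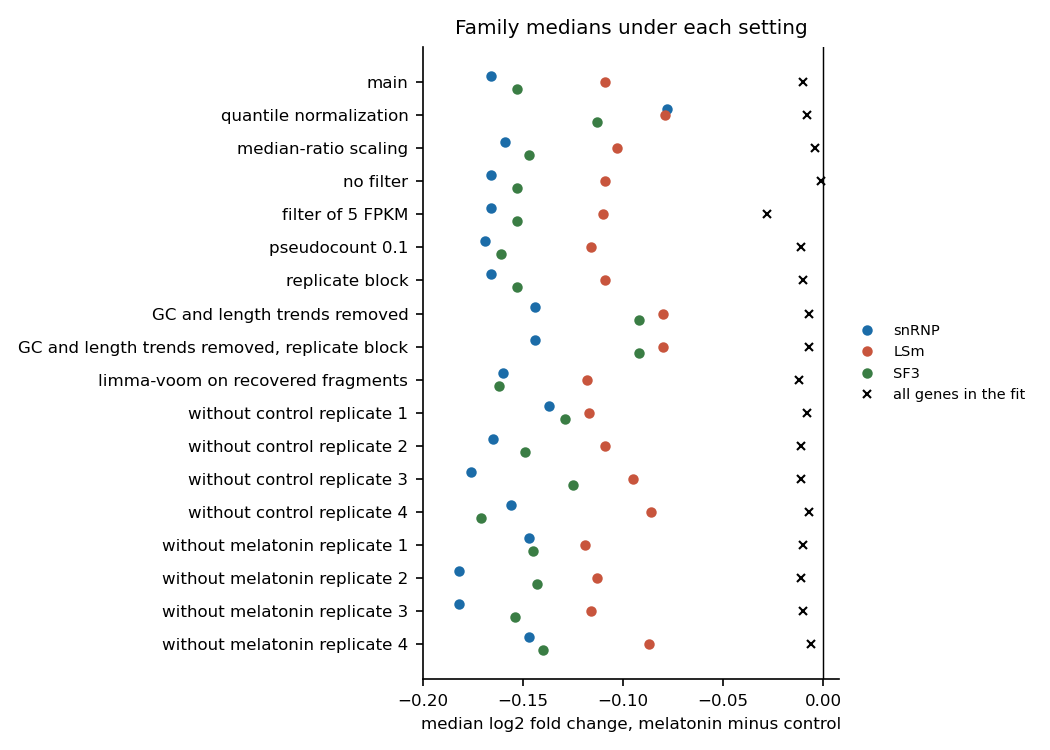
Median log2 fold change of the snRNP (blue), LSm (red) and SF3 (green) genes and of all genes in the fit (crosses) under the reported fit (main) and 17 alternatives. All family medians are below 0, and the snRNP median is nearest to 0 after quantile normalization (-0.078).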

How the data were processed

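Messenger RNA of 8 follicle libraries was measured, 4 control and 4 melatonin. HISAT2 2.0.5 and the build mm10 are named in the submitters' processing notes. The counting tool, the annotation and strand use were not given there, so overlapping antisense genes cannot be told apart. Values are deposited by the authors as FPKM per gene, per the file headers. The series table and the sample files differed in 0 values. From FPKM and exon lengths (GENCODE M21), whole fragments within 0.05 were recovered for 13764 of the 14738 tested genes, and the implied depth was 17451111 to 23649204 assigned fragments per library, which limits the precision of low genes. Testing was on log2(FPKM + 1) by limma (3.58.1, under R 4.3.3, with a trended empirical Bayes step) in genes averaging 1 FPKM or more, group as the single term, Benjamini-Hochberg adjustment over the tested genes and a threshold of 0.05. A log2 fold change on this scale understates the change of low genes. The fit was tested on simulated data. Members, partner lists and markers were chosen with earlier results of these data known. Per-library values were named for the 3 highest members of each family, the 5 members in each direction with the smallest p, and Lsm14a, Lsm14b, Lsm10 and Lsm11, and for some partners chosen after their values were seen; of each partner list the 2 genes with the smallest p were named, with Smn1 and Prpf8, and Snrnp70 and Luc7l2 after their values were seen. Alternatives were quantile normalization, median-ratio scaling, filters of 0 and 5 FPKM, a pseudocount of 0.1, removal of GC and exon length trends (splines with 5 degrees of freedom), the replicate number as a block, both together, limma-voom on recovered fragments, and leaving out each library. Tables, promoter motifs and plots were made in Python 3.11.15 (pandas 2.3.3, numpy 2.4.6, matplotlib 3.10.9).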

Additional observations from a re-analysis of the deposited data

Results flagged for a closer look

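In each group of 4 libraries, the highest and the lowest value of each member was compared with its nearest neighbour, relative to the range of the group. Of 68 groups, 4 had a library that stood apart, and chance gives about 1 in 20. Lsm7 had 34.3 FPKM in control replicate 2, below 38.6 to 39.4 in the other control libraries, and 39.8 FPKM in melatonin replicate 4, above 34.8 to 35.2 in the other melatonin libraries. Lsm8 had 9.09 FPKM in melatonin replicate 1, below 9.85 to 9.97 in the others. Lsm11 had 3.12 FPKM in control replicate 4, above 2.44 to 2.50 in the others.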

How the results depend on the processing

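No member passed the threshold under any alternative run. Over all tested genes the count of 0 became 1 without a filter on low values, 1 with GC and length trends removed together with the replicate block, and 0 to 1 when single libraries were left out (1 without control replicate 1). After quantile normalization the snRNP median was -0.078, 9 members were lower and 1 (Sf3b1) was higher at an unadjusted p under 0.05, and groups did not overlap in 4. The SF3 median was -0.092 with GC and length trends removed, with and without the replicate block. Leaving out single libraries gave 9 to 15 members lower (9 without melatonin replicate 1) and 0 to 1 higher: Sf3b1 without control replicate 1 and Lsm11 without control replicate 4. For quantile normalization, the replicate block and the left-out libraries, the shares over all tested genes are not given here. Genes with differences near 0 changed sign. Lsm14b was at 0.071 after quantile normalization, 0.001 with median-ratio scaling and 0.043 with GC and length trends removed, with or without the replicate block. Lsm7 was at 0.008 with GC and length trends removed, with or without the replicate block, and Snrpe at 0.057 after quantile normalization. Leaving out single libraries gave -0.050 to 0.028 for Lsm14b, -0.055 to 0.019 for Snrpe and -0.189 to 0.026 for Snrpert. Same-numbered samples of the groups had correlations of their deviations of 0.001, -0.103, 0.151 and 0.038, so the numbers were not taken as pairs; the replicate block left 11 members lower at an unadjusted p under 0.05, and only replicate 3 correlated best with its own number. Depth limits Snrpert, Lsm5, Lsm10, Lsm1 and Lsm11 most, with 104 to 443 fragments per library.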
